A study of Homo sapiens with 8 samples.

Results

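The 10 genes described here load, activate or accompany the replicative DNA helicase: MCM2, MCM3, MCM4, MCM5, MCM6, MCM7, MCM10, CDC6, CDT1 and PCNA. They were chosen by name in the gene count table, which holds 58735 genes, and each name matched 1 row. SV-HUC1 is an established human cell line, derived from normal urothelium and immortalised with SV40. The 4 treated cultures were kept for 24 h in medium with glucose oxidase at 20 mU per ml, an enzyme that forms hydrogen peroxide as it oxidises glucose. The 4 control cultures were untreated, and both groups were grown in the same serum-containing medium. The SV40 immortalisation is shared by both groups, and the line is a single line rather than several donors. Libraries of both groups carry replicate numbers 1 to 4, and the comparison asks whether helicase and origin genes differ after this exposure.

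Before a cell copies its DNA, the origin recognition complex, CDC6 and CDT1 load pairs of ring-shaped MCM helicases, each built from the subunits MCM2 to MCM7, onto origins. This step is called licensing. In S phase CDC45 and the GINS complex join each ring to form the active helicase, MCM10 helps to start it, and PCNA, the sliding clamp, holds the DNA polymerases on the template. Geminin, the product of GMNN, blocks CDT1 outside G1, and the CRL4 ubiquitin ligase with its adaptor DTL destroys CDT1 that is bound at PCNA. Transcription of many of these genes is driven by E2F factors, which RB family proteins restrain. The SV40 large T antigen is known to bind RB and p53.

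Promoter sequences are shown because E2F control is the feature these genes are best known to share. RefSeq promoters on GRCh38.p14, from 250 bases before to 50 bases after a transcription start, were given for 8 of the 10 genes. Of MCM4 and MCM5 only the names are given. The 8 spellings searched were TTTCCCGC, TTTCCCGG, TTTCGCGC, TTTCGCGG, TTTGCCGC, TTTGCCGG, TTTGGCGC and TTTGGCGG, on both strands, and matches may overlap. All 8 genes held at least 1 match, against 7.43% of 27305 gene symbols and 39 of 98 related replication and cell cycle genes (39.8%). A match is a description of letters and does not show that a factor binds there.

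Each line below gives a match in capitals with up to 12 bases on either side, read 5′ to 3′ on the strand of the gene.
MCM2, chr3:127598401-127598436, plus strand: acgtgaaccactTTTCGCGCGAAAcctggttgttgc
MCM3, chr6:52284727-52284758, minus strand: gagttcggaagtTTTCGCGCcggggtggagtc
MCM6, distal, chr2:135876572-135876607, minus strand: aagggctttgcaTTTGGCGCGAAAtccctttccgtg
MCM6, proximal, chr2:135876510-135876545, minus strand: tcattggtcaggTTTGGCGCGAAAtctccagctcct
MCM7, chr7:100101387-100101418, minus strand: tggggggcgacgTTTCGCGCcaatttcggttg
MCM10, chr10:13161551-13161582, plus strand: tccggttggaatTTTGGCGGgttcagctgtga
CDC6, upstream, chr17:40287839-40287870, plus strand: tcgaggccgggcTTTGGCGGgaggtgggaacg
CDC6, at the start, chr17:40287874-40287905, plus strand: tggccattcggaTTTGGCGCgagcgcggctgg
CDT1, chr16:88803742-88803781, plus strand: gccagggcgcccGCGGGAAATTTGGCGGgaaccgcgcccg
PCNA, chr20:5126662-5126693, minus strand: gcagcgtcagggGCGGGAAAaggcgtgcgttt

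In MCM2 and at both MCM6 sites the letters match on both strands, with overlapping matches that share bases. In CDT1 a match on each strand lies side by side. The MCM2 match began 2 bases after the base at the RefSeq start, the proximal MCM6 match 90 bases before it and the CDC6 matches 28 bases before and 7 bases after it. The single PCNA match began 59 bases before its start, and MCM10 also held a single match. A second RefSeq promoter of PCNA and 1 promoter of MCM7 held none of these letters. Not listed above are an MCM3 match that began 174 bases before its start and MCM7 matches that began 136 and 187 bases before their RefSeq starts. For contrast the 250 bases before the start are given for MCM6, which holds 4 matches in 2 places, and for PCNA, which holds 1.
MCM6, chr2:135876444-135876693, minus strand: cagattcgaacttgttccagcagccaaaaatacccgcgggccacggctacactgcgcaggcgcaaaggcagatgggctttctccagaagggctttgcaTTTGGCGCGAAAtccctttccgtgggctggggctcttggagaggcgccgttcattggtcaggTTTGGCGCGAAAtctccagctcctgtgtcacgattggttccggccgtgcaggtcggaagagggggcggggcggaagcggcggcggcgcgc
PCNA, chr20:5126623-5126872, minus strand: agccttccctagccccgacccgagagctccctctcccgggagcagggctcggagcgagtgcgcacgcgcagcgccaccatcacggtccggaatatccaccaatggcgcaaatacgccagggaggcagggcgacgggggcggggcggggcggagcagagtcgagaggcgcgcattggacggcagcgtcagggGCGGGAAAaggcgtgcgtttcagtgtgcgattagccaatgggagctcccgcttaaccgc

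Libraries held 21437267 to 27183692 counts in treated cultures and 21653952 to 23543702 in controls. Of 14 urothelial or epithelial markers 12 were above 1 CPM in every library. The exceptions were UPK3A, with a value of 0 in 7 libraries, and TP63, at 0.0481 to 1.47 CPM. The summed level of the 14 markers was 4205.2 to 4720.3 CPM in treated cultures and 5828.4 to 8461.4 CPM in controls. Summed fibroblast markers reached 26.24 CPM in treated cultures and 26.11 CPM in controls, of which COL1A1 made up most, and summed endothelial and leukocyte markers stayed below 6 CPM in both groups. Libraries with the replicate numbers 1 and 2 stood apart from those numbered 3 and 4 in both groups, a division that is not in the labels. It bears on every result below, so values are given by replicate. In bulk RNA, fewer cells in a given cycle phase and less RNA per cell cannot be told apart.

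None of the 10 genes passed the test after glucose oxidase. CPM below are counts scaled to library size with TMM normalisation, and tests are edgeR's quasi-likelihood test with Benjamini-Hochberg adjustment over 17413 genes at a threshold of 0.05. Without the replicate number in the model, 0 of 10 members were called, against 0% of all genes, with 0 members and 1284 genes (7.37%) at an unadjusted p below 0.05. With the replicate number as a block, 0 of 10 were called, against 14.5% of all genes (2521 of 17413). With the division of replicates 1 and 2 from 3 and 4 as a term instead (the division fit), 0 of 10 were called, against 6.79% of all genes, 3.72% higher and 3.07% lower. The division fit had 2 members and 4376 genes at an unadjusted p below 0.05. At that level the blocked fit had 3 members, MCM10, CDT1 and PCNA, and 5030 genes. DESeq2 called 0 members without the block, beside 76 of 18950 genes. With the block it called 1 of 10 members, PCNA, beside 2530 of 14327 genes. The median log2 change of the 10 genes in the blocked edgeR fit was 0.03, beside -0.01 over all genes tested.

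**Figure D1:**
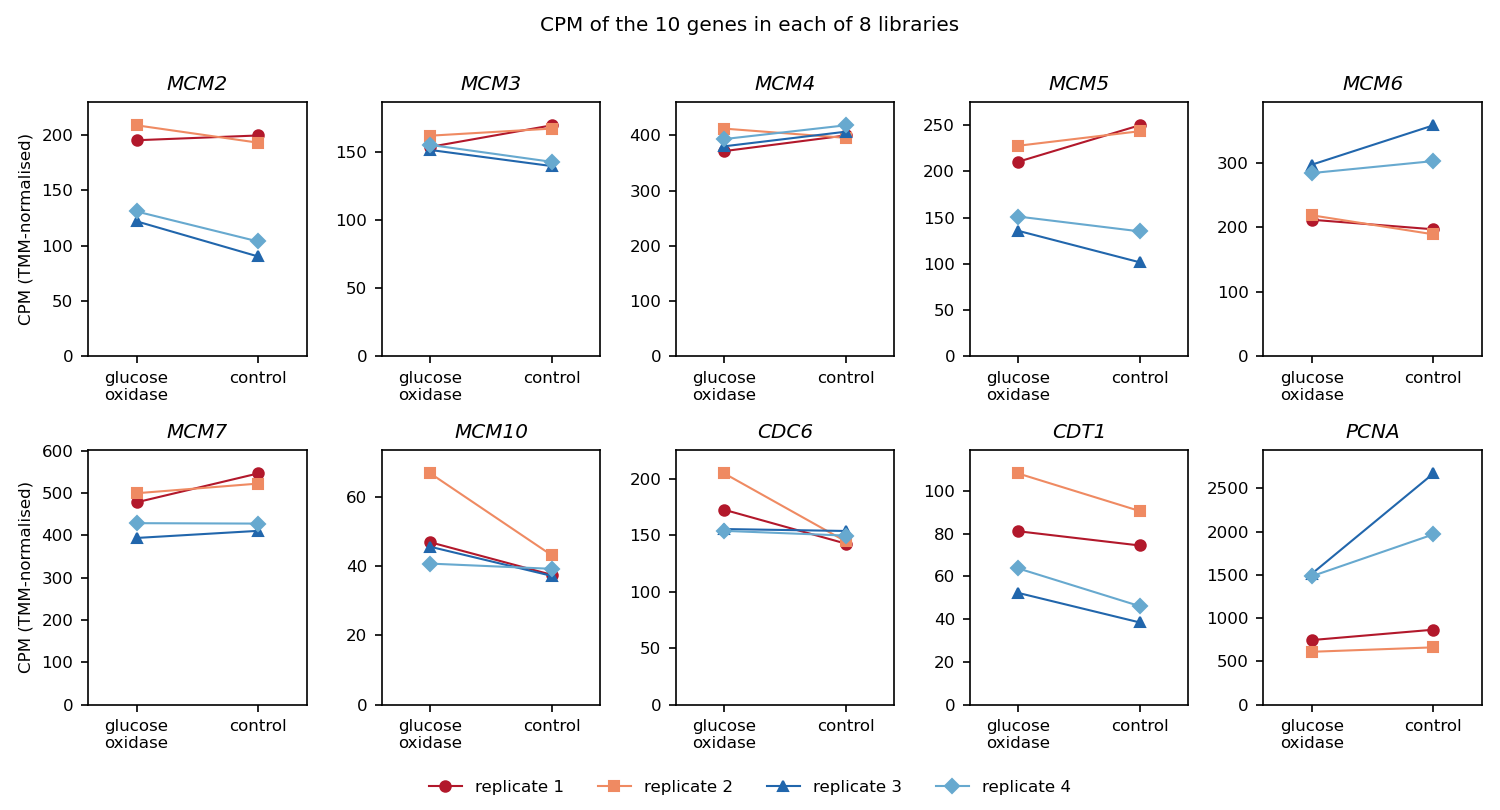
TMM-normalised CPM (y axis, from 0) of each gene in the glucose oxidase library (left) and the control library (right) of each replicate number, joined by a line. Replicates 3 and 4 sit apart from 1 and 2 in MCM2, MCM5, MCM6, CDT1 and PCNA, while MCM4 stays between 371.7 and 418.4 CPM in all 8 libraries.

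None of the 6 ring subunits passed the test, and all their 95% intervals in the blocked fit include 0. The deposited FPKM values are scaled to gene length and to the authors' own measure of library size. Summed over MCM2 to MCM7, they came to 319.8, 330.5, 301.4 and 309.9 in treated cultures 1 to 4, against 342.3, 325.7, 315.3 and 309.0 in controls 1 to 4. The treated and control ranges of this sum overlap, with means of 315.4 ± 12.6 in treated cultures and 323.0 ± 14.6 in controls (SD, n = 4 each).

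MCM4 (ENSG00000104738), chromosome 8, 47960185 to 47978160 on GRCh38, is one of the subunits of the ring's catalytic core. It was at 371.7, 412.4, 380.4 and 393.5 CPM in treated cultures and at 400, 395.7, 406.8 and 418.4 CPM in controls. The groups overlap, and MCM4 had the smallest range of the 10 genes over the 8 libraries, 0.17 on the log2 scale, against a median of 1.03 over protein-coding genes of at least 5 CPM. Its log2 change in the blocked fit was -0.06 (95% interval -0.37 to 0.26, edgeR adjusted p = 0.848).

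MCM6 (ENSG00000076003), chromosome 2, 135839626 to 135876426, and MCM7 (ENSG00000166508), chromosome 7, 100092728 to 100101940, complete that core with MCM4. MCM7 was at 478.3, 499.8, 394 and 429 CPM in treated cultures and at 546.6, 522.6, 410.8 and 428 CPM in controls. The treated value was lower in 3 of 4 pairs and the groups overlap (log2 change -0.08, 95% interval -0.40 to 0.24, edgeR adjusted p = 0.792 with the block). MCM7 carries the miR-106b, miR-93 and miR-25 precursors in an intron, and these had at most 45 counts in any library, against at least 7425 for MCM7. MCM6 was at 212, 218.9, 297.6 and 284.5 CPM in treated cultures and at 197.2, 189.4, 358.6 and 303.1 CPM in controls. It was higher than control in pairs 1 and 2 and lower in pairs 3 and 4, and its fitted change was -0.01 on the log2 scale (95% interval -0.32 to 0.30, edgeR adjusted p = 0.970 with the block).

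MCM2 (ENSG00000073111), chromosome 3, 127598223 to 127622436, MCM3 (ENSG00000112118), chromosome 6, 52264009 to 52284881, and MCM5 (ENSG00000100297), chromosome 22, 35400063 to 35425430, form the other side of the ring, where MCM2 and MCM5 make the gate through which DNA enters. MCM2 was at 195.4, 208.9, 122.1 and 131 CPM in treated cultures and at 199.7, 193.2, 90.35 and 103.9 CPM in controls. It was higher than control in 3 of 4 pairs, by log2 differences of 0.43 and 0.34 in pairs 3 and 4 and of -0.03 and 0.11 in pairs 1 and 2. The log2 change was 0.21 (95% interval -0.09 to 0.51, edgeR adjusted p = 0.363 with the block). TPRA1 overlaps MCM2 on the opposite strand with 1022 to 1833 counts against 1633 to 5796 for MCM2, and no source used here gives the strand setting of the counting, so reads of these genes may not have been told apart.

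MCM5 was at 210.3, 227.6, 135.7 and 151.1 CPM in treated cultures and at 249.7, 243.3, 101.7 and 135.1 CPM in controls. It was lower than control in pairs 1 and 2 and higher in pairs 3 and 4, the reverse of MCM6. Its log2 change was 0.06 with the block (95% interval -0.25 to 0.37, edgeR adjusted p = 0.848) and -0.01 without it. MCM3 was at 153.6, 161.8, 151.3 and 155 CPM in treated cultures and at 169.4, 167, 139.5 and 142.6 CPM in controls. Treated values of MCM3 lay inside the control range in all 4 cultures (log2 change 0.01, 95% interval -0.28 to 0.31, edgeR adjusted p = 0.965 with the block).

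**Figure D2:**
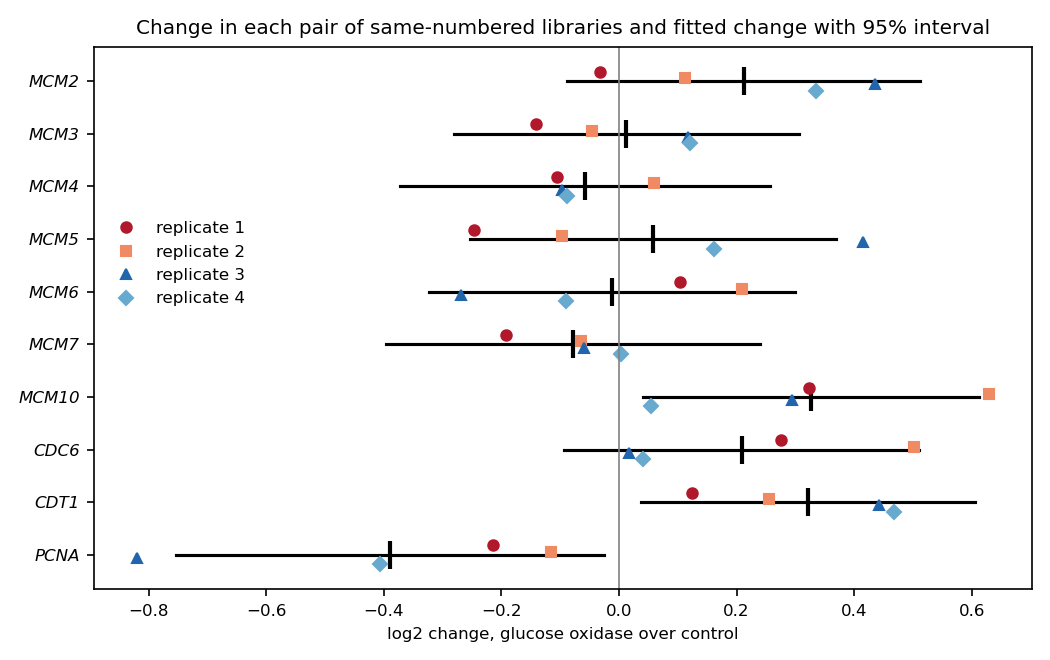
Log2 difference of glucose oxidase over control in each pair of same-numbered libraries (coloured symbols, log2 CPM with a prior count of 2), with the log2 change of the blocked edgeR fit (vertical bar) and its 95% interval (line). MCM10, CDC6 and CDT1 lie above 0 in all 4 pairs and PCNA below 0 in all 4, while MCM3, MCM5 and MCM6 have pairs 1 and 2 on one side of 0 and pairs 3 and 4 on the other.

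The loading factors CDC6 and CDT1 and the activator MCM10 were higher than control in all 4 pairs, 3 of the 10 genes against 16.9% of all genes tested, and none of them passed the test. CDC6 (ENSG00000094804), chromosome 17, 40287633 to 40304657, is the ATPase that closes the loading platform with the origin recognition complex. It was at 172.7, 204.9, 155.6 and 154 CPM in treated cultures and at 142.7, 144.7, 153.9 and 149.8 CPM in controls. All treated values lay above all controls, as for 2.42% of all genes tested. CDC6 was the only 1 of the 10 genes whose groups did not overlap, against 5.02% of all genes in either direction. The margin was narrow: the lowest treated value was 154 CPM and the highest control 153.9 CPM. The log2 change was 0.21 (95% interval -0.09 to 0.51, edgeR adjusted p = 0.375 with the block), with log2 differences of 0.28 and 0.50 in pairs 1 and 2 and of 0.02 and 0.04 in pairs 3 and 4.

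CDT1 (ENSG00000167513), chromosome 16, 88803213 to 88809258, brings the MCM ring to that platform. It was at 81.14, 108.2, 52.27 and 63.75 CPM in treated cultures and at 74.48, 90.63, 38.45 and 46.09 CPM in controls. The groups overlap, and replicates 3 and 4 were lower than 1 and 2 in both. The log2 change was 0.32 (95% interval 0.04 to 0.60, unadjusted p = 0.0279 and adjusted p = 0.120 in the blocked edgeR fit).

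MCM10 (ENSG00000065328), chromosome 10, 13161554 to 13211104, is not a ring subunit in spite of its name. It was at 46.89, 66.79, 45.59 and 40.73 CPM in treated cultures and at 37.48, 43.13, 37.18 and 39.22 CPM in controls. The treated culture 2 was the highest and the groups overlap only through treated culture 4, below control 2. Its log2 change was 0.33 (95% interval 0.04 to 0.61, adjusted p = 0.116 in the blocked edgeR fit). With scaling by total counts alone, which put the median over all genes at a log2 change of 0.10, its adjusted p under the blocked edgeR model was 0.0509.

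PCNA (ENSG00000132646), chromosome 20, 5114953 to 5126626, was lower than control in all 4 pairs, as were 17.1% of all genes tested. It was at 745.5, 609.9, 1513.8 and 1484.3 CPM in treated cultures and at 865.2, 661, 2671.8 and 1967.8 CPM in controls. The groups overlap widely. PCNA was higher in replicates 3 and 4 than in 1 and 2 in both groups, and the pair differences on the log2 scale were -0.21, -0.12, -0.82 and -0.41. The log2 change was -0.39 with the block (SE 0.18, 95% interval -0.75 to -0.03, edgeR adjusted p = 0.143) and -0.50 without it (SE 0.49, edgeR adjusted p = 0.774). DESeq2 with the block called it lower (log2 change -0.39, adjusted p = 0.0425). In edgeR the change was -0.245 with the block and without replicate 3 (adjusted p = 0.480), and -0.0961 without the block and without control 3 (adjusted p = 0.999). The PCNA pseudogenes PCNAP1, PCNAP3 and PCNAP4 had 4 counts in all 8 libraries together.

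The authors' deposited table likewise held no adjusted p below 0.05 among these genes. In the authors' deposited table the smallest was that of MCM10 (log2 fold change 0.34, adjusted p = 0.655), and PCNA had a log2 fold change of -0.52 (adjusted p = 0.787).

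The 95% intervals of the 6 ring subunits in the blocked fit ran between 0.760-fold for the lower bound of MCM7 and 1.43-fold for the upper bound of MCM2. The intervals with the block cover the spread among paired libraries only. In the main fit, without the block, they were wider, between 0.606-fold for the lower bound of MCM5 and 1.81-fold for the upper bound of MCM2. The submitters describe the replicates as biological and from independent experiments, but not whether equal numbers mark the same experiment.

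For 7 of these genes, all but MCM4, MCM10 and CDC6, the ratio of replicates 3 and 4 to replicates 1 and 2 was further from 1, on the log2 scale, in both groups than the blocked fold change after glucose oxidase. PCNA averaged 1499.1 CPM in treated cultures 3 and 4 and 677.7 CPM in treated cultures 1 and 2, a ratio of 2.21, and 2319.8 and 763.1 CPM in the controls of the same numbers, a ratio of 3.04. MCM6 had ratios of 1.35 in treated cultures and 1.71 in controls. MCM2 had 0.626 in treated cultures and 0.494 in controls, MCM5 0.655 and 0.481, and CDT1 0.613 and 0.512. MCM7 had 0.841 in treated cultures and 0.785 in controls, and MCM3 0.971 and 0.838. Thus PCNA and MCM6 were higher in replicates 3 and 4, and MCM2, MCM5, MCM7 and CDT1 were lower there, in both groups, although all encode parts of the same machinery. MCM3 was lower there in controls, while in treated cultures its sets overlapped, with culture 4 (155 CPM) above culture 1 (153.6 CPM). The division was found from the expression of these same libraries, so these ratios are given as a description with no test.

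Over all 17413 genes the median absolute log2 difference between controls 3 and 4 and controls 1 and 2 was 0.55, and that of the treated cultures 0.43. With its sign kept, the control difference had a median of -0.06 over all genes. For the mitosis list, with CCNB1, PLK1 and TOP2A among its 10 genes, this signed median was 1.06. For the 10 helicase and licensing genes it was -0.16, with genes far on both sides of 0, from -1.07 for MCM5 to 1.60 for PCNA. The signed median therefore does not give the size of their differences. A part of cycle phase in these values was not tested.

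The change after glucose oxidase was also compared between the sets of replicates in 1 model. For none of the 10 genes did the change in replicates 3 and 4 differ from that in replicates 1 and 2 past the edgeR threshold. Of all genes tested 0.902% did (157 of 17413), 0.735% with a positive and 0.167% with a negative difference. The smallest p among the members was that of MCM5 (edgeR unadjusted p = 0.0917 and adjusted p = 0.531). Its log2 change was 0.29 in the replicates numbered 3 and 4, beside -0.17 in those numbered 1 and 2 (difference 0.46, 95% interval -0.08 to 1.00). For PCNA the changes were -0.61 in the later numbers, beside -0.17 in 1 and 2 (difference -0.45, 95% interval -1.08 to 0.18, edgeR adjusted p = 0.617). For CDC6 they were 0.03 in 3 and 4, beside 0.39 in 1 and 2 (edgeR adjusted p = 0.635).

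**Figure D3:**
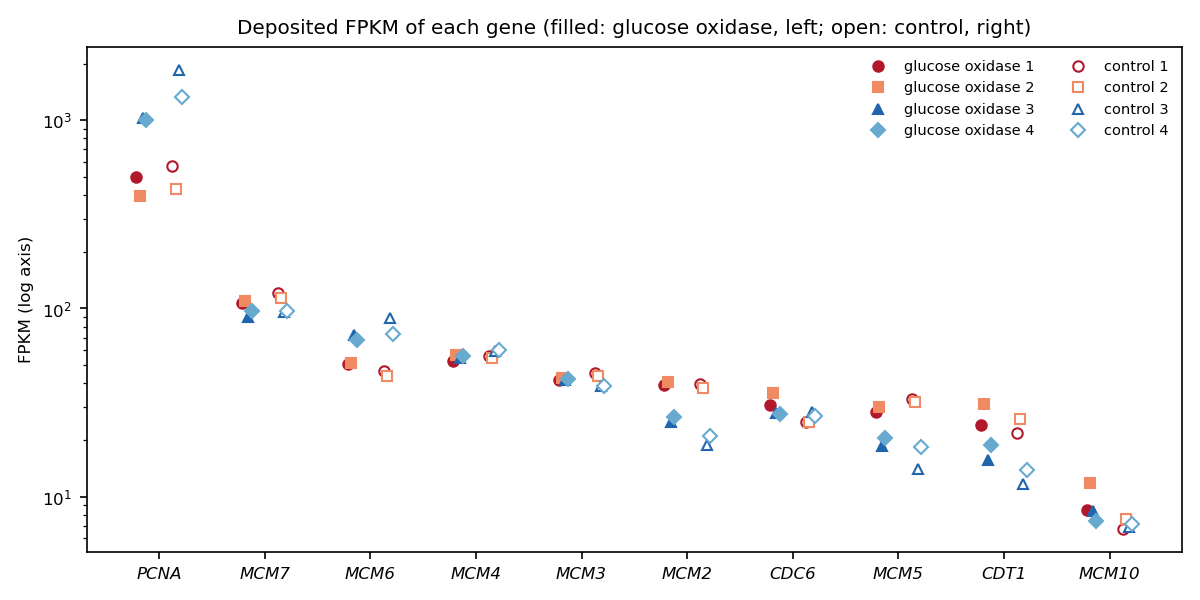
Deposited FPKM (log axis) of each gene in every library, with glucose oxidase libraries filled and on the left and controls open and on the right. PCNA is highest and MCM10 lowest in all 8 libraries, and MCM7 has rank 2 in all 8.

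Levels per length can be compared between genes. By FPKM, PCNA stood first, at 398.1 to 1028.6 in treated cultures and 430.2 to 1849.7 in controls, and MCM7 had rank 2, at 89.79 to 109.4 in treated cultures and 95.38 to 121.5 in controls, in all 8 libraries. MCM6 (60.6 ± 11.3 in treated cultures, 63.2 ± 21.6 in controls) and MCM4 (54.9 ± 1.84 and 57.4 ± 2.68) followed and did not differ beyond their spread (SD, n = 4 each). Their order turned with the replicate number, with MCM4 at rank 3 in replicates 1 and 2 of both groups and MCM6 at that rank in replicates 3 and 4. MCM3 had rank 5 in all 8 libraries, with 41.9 ± 0.53 FPKM in treated cultures and 41.7 ± 3.29 in controls (SD, n = 4 each). MCM2, CDC6, MCM5 and CDT1 lay between 11.74 and 40.92 FPKM and overlapped each other, and MCM10 was last, at 7.391 to 11.76 FPKM in treated cultures and 6.7 to 7.57 FPKM in controls.

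The ring holds its 6 subunits in equal number, but their transcripts were unequal per length. MCM7 took 31.9 ± 1.76% of the summed FPKM of MCM2 to MCM7 in treated cultures and 33.1 ± 2.59% in controls, and MCM5 7.64 ± 1.49% and 7.47 ± 2.67% (SD, n = 4 each). MCM6 took 15.44 to 23.97% in treated cultures and 13.52 to 28.13% in controls, the widest range, while MCM3 stayed at 12.88 to 13.75% and 12.34 to 13.45%. FPKM uses the summed length of all annotated exons, 7338 bases for MCM5 and 3650 for MCM3, so a gene with long unused exons appears lower.

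Profiles over the 8 libraries were compared with the mean of MCM2 to MCM7 by the mean absolute difference of centred log2 CPM. Of 10871 other protein-coding genes of at least 5 CPM, the closest were BAP1 (0.0329), ZNF692 (0.0335), EWSR1 (0.0350), DDX41 (0.0357) and CDCA7 (0.0419). MCM7 (0.0506) and MCM3 (0.0524) lay close to that mean, of which they are part, and MCM4 (0.135) had 1005 other genes closer. MCM5 (0.294), MCM2 (0.297) and MCM6 (0.427) lay far from it, with 5626, 5688 and 7999 other genes closer. The mean is thus not a profile that all ring subunits share. PCNA (0.815) lay furthest of the members, with 10546 other genes closer.

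Among 118 related replication and cell cycle genes in 10 lists, all tested, 7 rose and 11 fell with the replicate block, against 7.51% and 6.97% of all genes, and 0 passed without it. The related lists together were thus called at a share near that of all genes. All 18 also passed in DESeq2 with the block, and 10 passed in the division fit. Leaving out each replicate in turn with the block kept 5 of the 18 every time: DTL, POLE4, PCLAF, RPA3 and CDKN2C. Adjusted p below are of edgeR with the block.

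**Figure D4:**
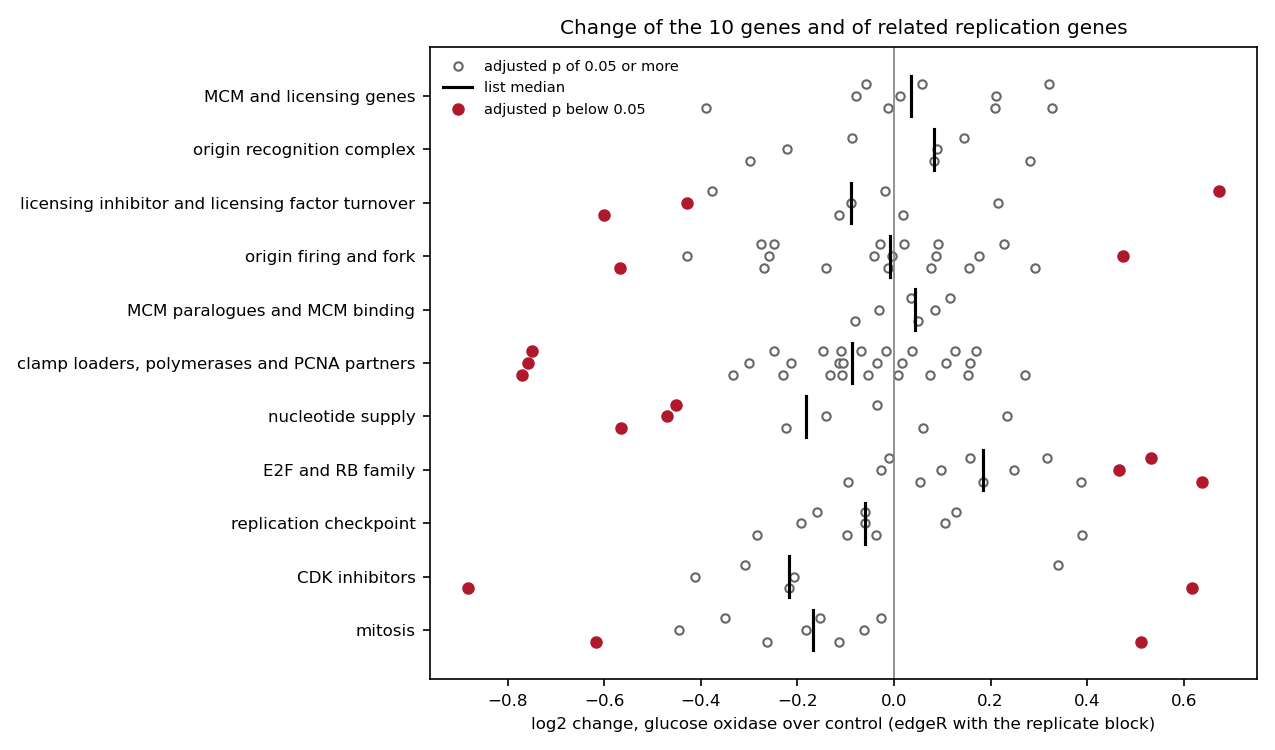
Log2 change of glucose oxidase over control in the blocked edgeR fit for the 10 helicase and licensing genes and for 118 related genes in 10 lists. Red points passed an adjusted p of 0.05, open points did not, and vertical bars are list medians. No red point lies in the top row.

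None of 7 origin recognition genes passed, and for ORC1 the log2 change was 0.28 (adjusted p = 0.172). Of 9 genes that restrain licensing or destroy licensing factors, DTL rose and SKP1 and CUL4B fell. DTL, the adaptor that targets CDT1 at PCNA, was at 96.04, 132.3, 69.2 and 58.97 CPM in treated cultures and at 67.52, 75.65, 38.56 and 40.57 CPM in controls. It was higher than control in all 4 pairs (log2 change 0.67, SE 0.14, adjusted p = 0.00198, and adjusted p = 0.0121 in the division fit). SKP1, a core subunit of the SCF ubiquitin ligase that also handles CDT1, had a log2 change of -0.60 (adjusted p = 0.00928). Its adjusted p was 0.0607 without replicate 3 and 0.0441 in the division fit. CUL4B, a scaffold of the CRL4 ligase, had a log2 change of -0.43, and its call was lost without any 1 replicate. GMNN, the inhibitor of CDT1, had a log2 change of -0.38 (adjusted p = 0.108).

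Of 20 genes of origin firing and the fork, TICRR rose and RECQL4 fell. RECQL4, a helicase of replication initiation, was at 75.44, 64.14, 85.62 and 95.03 CPM in treated cultures and at 128.4, 105.2, 119.3 and 118.1 CPM in controls, so that all treated values lay below all controls (2.6% of all genes were so placed; log2 change -0.57, SE 0.14, adjusted p = 0.00818). Its adjusted p was 0.0613 without replicate 1. TICRR, which brings CDC45 to origins, had a log2 change of 0.47 (adjusted p = 0.0280), a call lost without replicate 1, 2 or 3 and in the division fit (adjusted p = 0.0919). The helicase partners did not pass, with log2 changes (adjusted p) of CDC45 -0.26 (0.249), GINS1 -0.43 (0.0545), GINS2 -0.27 (0.200), GINS3 -0.01 (0.962) and GINS4 0.09 (0.748). DESeq2 with the block gave GINS1 an adjusted p of 0.0232 and GMNN one of 0.0488.

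None of 6 MCM paralogues and MCM binding proteins passed. Of 28 clamp loader, polymerase and PCNA partner genes 3 fell and none rose. PCLAF, a small protein that binds PCNA, was at 76.96, 47.34, 148.3 and 135.7 CPM in treated cultures and at 127.4, 90.75, 275.2 and 188.6 CPM in controls. Its treated value was lower in all 4 pairs (log2 change -0.76, SE 0.15, adjusted p = 0.00117). POLE4, an accessory subunit of polymerase epsilon, had a log2 change of -0.75, and RPA3, the small subunit of the single-strand binding protein RPA, one of -0.77 (adjusted p = 0.0522 in the division fit). With an offset for gene length these changes were -0.73 for PCLAF, -0.64 for POLE4 and -0.72 for RPA3, and all 3 passed.

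Of 8 nucleotide supply genes 3 fell and none rose, among them TK1, the thymidine kinase (log2 change -0.47), and DUT, which removes dUTP (-0.45). The calls of TK1 and DUT were lost without any 1 replicate, with total counts alone and with the gene length offset. Of 13 E2F and RB family genes 3 rose and none fell. For E2F7, a repressor of E2F targets, the log2 change was 0.64 (adjusted p = 0.00612, but 0.0882 without replicate 3), for E2F2, an activator, 0.53 (0.178 without replicate 3) and for E2F8, a repressor, 0.47 (lost without replicate 1, 2 or 3). E2F1, the activator best known for these promoters, had a value of -0.10 (adjusted p = 0.732).

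None of 10 replication checkpoint genes passed. Of 7 CDK inhibitors CDKN1A, the p21 inhibitor that also binds PCNA, rose and CDKN2C, an inhibitor of CDK4 and CDK6, fell. CDKN2C was at 11.76, 9.564, 15.59 and 19.78 CPM in treated cultures and at 18.67, 17.1, 39.89 and 31.48 CPM in controls, lower than control in all 4 pairs (log2 change -0.88, SE 0.15, adjusted p = 3.80e-04). CDKN1A was at 139, 142, 126.3 and 116 CPM in treated cultures and at 105.3, 128.2, 65.12 and 59.02 CPM in controls (adjusted p = 0.00865), a call lost without replicate 3 or 4 (adjusted p up to 0.0983). Of 10 mitosis genes MKI67 rose and PTTG1 fell, with MKI67 lost without replicate 1, 2 or 3 (adjusted p up to 0.200) and PTTG1 without replicate 3 (0.109). In the division fit neither passed (adjusted p = 0.148 for MKI67 and 0.0743 for PTTG1). MKI67 was also lost with the gene length offset (adjusted p = 0.161), and its log2 difference in pair 4 was -0.136.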

How the data were processed

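Total RNA of 8 SV-HUC1 cultures was sequenced from NEBNext libraries. The submitters' processing notes name the build GRCh38.p13 and the tools DESeq2 1.20.0, featureCounts 1.5.0-p3 and HISAT2 2.0.5, with no strand setting. The deposited counts are raw whole numbers per gene, and all 58735 genes equal GENCODE release 29 in identifier, name and coordinates. The deposited FPKM values are the authors' own scaling, which does not follow the total counts alone. They were used for levels between genes and for the sum and shares of MCM2 to MCM7, and not for any test. The authors' deposited table gives a size-factor-normalised signal, which was not used, and a log2 fold change, p-value and adjusted p-value per gene.

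The main test was that of edgeR 4.0.16 in R 4.3.3 (TMM, filterByExpr, quasi-likelihood test), which left 17413 genes, with DESeq2 1.42.0 as an alternative. All 10 members and all 118 related genes passed the filter. Standard errors were derived from the fitted change and its F statistic. Intervals are 95% intervals from the t distribution of the fit. The main model had the group as its only term. Same-numbered libraries deviated together from their group means (correlations across genes of 0.532, 0.678, 0.590 and 0.503, each over the minimum of 0.1), so the blocked fit is given beside it. Libraries 1 and 2 also correlate across numbers (0.443 and 0.468), as do 3 and 4 (0.453 and 0.652). The correlation of treated culture 4 with control 3, 0.652, was above those of the same-numbered libraries 3 and 4. The number and that division are thus hard to separate, and a fit with a term for the division was run. Replicates of a group all differed by more than sampling noise, with chi-square over its degrees of freedom at 11.1 to 260.7. Some of the models were run on simulated data with 200 changed genes. The main edgeR model recovered 11% of 2-fold and 87% of 4-fold changes, so its 0 calls say little about 2-fold changes. The blocked edgeR fit recovered 99% and 100% with 12 false calls, and the division fit 87% and 100% with 0. The edgeR test of the difference between sets recovered 37% and 98%. Simulated means were shared by same-numbered libraries, as the block assumes. No per-sample column was left out for lack of a sample.

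Members, gene lists, the division of replicates and the tests were chosen with earlier results of these data known. All members are named, with up to 3 genes per related list and direction of smallest adjusted p in the blocked fit, and 10 direct partners (CDC45, GINS1 to GINS4, ORC1, GMNN, DTL, E2F1, CDKN1A) and the 5 genes of closest profile. The values of 1 gene that the rule names are not reported here. Promoters come from RefSeq.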

Additional observations from a re-analysis of the deposited data

Results flagged for a closer look

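Among 114 sets of 4 values examined, 2 held a library far from the other 3, and chance flags about 1 in 20 such sets. TK1, the thymidine kinase, was at 377.6 CPM in control 1, against 250.1 to 260.2 CPM in the other controls. DUT, which removes dUTP, was at 143.5 CPM in treated culture 2, against 206.1 to 216 CPM in the other treated cultures. Both genes lost their call in the blocked edgeR fit without any 1 replicate.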

How the results depend on the processing

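No fit called any of the 10 genes except DESeq2 with the replicate block, which called 1, PCNA. Without the block edgeR called 0 of all genes and 0 of 118 related genes, also with RLE factors, total counts alone and any 1 replicate or library left out. With the replicate block edgeR called 2521 of all genes and 18 related genes, and the division fit 1182 and 10. DESeq2 called 2530 of 14327 genes and 22 related genes with the block, and 76 of 18950 genes and 0 related genes without it. With the block, total counts alone gave 2210 (1675 higher, 535 lower) and 16, no filter on low counts 2293 and 15, and the gene length offset 2194 and 15. No filter without the block gave 34 and 0. Leaving out 1 replicate with the block gave 1634, 1502, 1100 and 1886 genes and 10, 14, 6 and 14 related genes without replicates 1 to 4 in turn. The difference of the change between sets of replicates called 0 of 10 genes in every fit run.

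Of 260 alternative values of the 10 changes, 221 kept direction and side of the threshold, 38 turned in sign, all of genes that were not called, and 1 passed the threshold. The cause was not tested. MCM3 turned to -0.005216 with RLE factors. MCM4 turned to 0.04491 with total counts alone and 0.05236 with the block added. MCM5 turned to 0.05715 with the block, 0.05195 in the division fit, 0.05268 in DESeq2 with the block, 0.03514 with total counts alone, 0.1662 with total counts and block, 0.02445 with no filter and 0.08268 with no filter and block. MCM6 turned to 0.09298 with total counts alone, 0.09863 with total counts and block and 0.01373 with no filter and block, and MCM7 to 0.03168 with total counts and block. GINS3 turned to 0.09881 and 0.09657 with total counts without and with block and to 0.008922 and 0.01219 with no filter without and with block. E2F1 turned to 0.01388 with total counts and block. The difference for MCM4 turned to 0.1266 with total counts and block. With the block, MCM3 turned to -0.02134 without replicate 3 and -0.02562 without 4, MCM5 to 0.1739, 0.1235 and 0.01992 without 1, 2 and 4, MCM6 to 0.07499 and 0.0126 without 3 and 4, GINS3 to 0.0289 and 0.04018 without 1 and 3, GINS4 to -0.0312 without 1 and E2F1 to 0.03376 without 1. Over the fits without the block that left out a replicate or a library, changes ran from -0.007874 to 0.3604 for MCM2, -0.03589 to 0.07361 for MCM3, -0.2055 to 0.1917 for MCM5, -0.1693 to 0.1418 for MCM6, -0.1457 to 0.003707 for MCM7, -0.07279 to 0.04242 for GINS3, -0.02198 to 0.181 for GINS4 and -0.2883 to 0.09924 for E2F1. Among genes that kept their sign there, PCNA ran from -0.7412 without control 2 to -0.0961 without control 3, CDT1 from 0.08864 without treated 2 to 0.5221 without control 2, MCM10 from 0.1938 without treated 2 to 0.4329 without treated 4, and CDC6 from 0.127 without replicate 2 to 0.2824 without replicate 3. With the block and 1 replicate left out, PCNA ran from -0.4656 without 2 to -0.245 without 3, CDT1 from 0.2703 without 4 to 0.4019 without 1, MCM10 from 0.2386 without 2 to 0.4148 without 4, and CDC6 from 0.1253 without 2 to 0.2736 without 3. The difference for MCM4 ran from -0.08807 to 0.04388 with a replicate left out.

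With 4 libraries a group, changes of a ring subunit inside the 95% interval given for it are not excluded. The interval of every ring subunit was wider in the main fit without the block.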
